A study of Mus musculus with 32 samples.

Results

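The lungs of pups given tamoxifen in oil were compared with the lungs of pups given saline, a comparison that rests on 8 of the 32 RNA libraries of the study, 4 in each group. The members were chosen by their treatment labels, and all 8 came from lung tissue of C57BL/6 mouse pups killed on postnatal day 6. The tamoxifen pups had received 0.4 mg of tamoxifen in 25 µl of the oil Miglyol into the peritoneum on each of postnatal days 1 and 2. The saline pups had received 25 µl of saline by the same route on the same days. Drug and oil were given together, so the comparison holds both at once, and a further 4 libraries of pups given 25 µl of Miglyol alone on those days were set beside it. The pups of all 3 groups were killed with pentobarbital and the vessels of their lungs were flushed with PBS before RNA was taken. The strain label names no transgene, so no Cre recombinase is part of any group as far as the labels say. The remaining 20 libraries of the study, taken on postnatal day 14, do not enter the results.

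Tamoxifen binds the oestrogen receptor, blocking it in some tissues and acting like oestrogen in others, and mouse studies use it to switch on Cre recombinases fused to that receptor. It is also a basic, fat-loving compound that gathers in lysosomes and binds enzymes of sterol synthesis. In the first week after birth the mouse lung is dividing its air sacs into alveoli, a process carried by alveolar fibroblasts, pericytes, capillaries and the alveolar epithelium. Neutrophils are blood cells that carry granules of antimicrobial proteins, and alveolar macrophages take up the surfactant lipid that the epithelium secretes.

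Each library was a count of exon reads per gene from polyadenylated RNA. The tamoxifen libraries held 8975790, 10057714, 10976949 and 9911853 exon reads, and the saline libraries held 8006991, 8048735, 8023331 and 11292990. Levels are given as CPM, exon reads scaled to the depth of the library with TMM factors, in the order of replicates 1 to 4. Differences are log2 fold changes from the edgeR quasi-likelihood test over 14107 genes, fitted over the 12 day 6 libraries, and a gene counts as past the threshold at a Benjamini-Hochberg adjusted p under 0.05. The labels do not tie each library to its own animal, so the p-values measure the spread between these libraries, which may be technical in part. RNA of whole lung cannot tell fewer cells of a type from less RNA per cell. The lung identity of the samples was plain: Sftpc, the surfactant protein made by alveolar type 2 cells, stood at 10160, 11150, 9133 and 11650 CPM after tamoxifen and at 9169, 9176, 8103 and 8582 CPM after saline. By Xist and Y-linked genes 2 libraries of each group were female and 2 male. Tamoxifen replicate 4 stood apart from the other tamoxifen libraries: its chi-square statistic per gene was 11.8 to 16.6 against them, while the other tamoxifen pairs had 5.0 to 8.88 and the saline pairs 2.38 to 6.96. The share of intronic reads was 13.1%, 11.8%, 13.4% and 15% in the tamoxifen libraries, 13.1%, 14.3%, 13.7% and 11.4% in the Miglyol libraries, and 15%, 13.9%, 16.1% and 15.4% in the saline libraries. It was thus lower in 3 of the 4 tamoxifen libraries than in every saline library, and its part in the gene differences was not tested beyond the fits that hold it as a covariate.

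In the tamoxifen lungs 3343 genes differed from saline, 23.7% of those tested. Of these 1601 were higher (11.3%) and 1742 were lower (12.3%). Most differences were small: 76.0% of the called genes lay under 1.5-fold, while 172 were at least 2-fold higher and 68 at least 2-fold lower. The tamoxifen and saline ranges did not overlap in 3208 genes, 22.7%. Without tamoxifen replicate 4, 3924 genes passed, 1910 higher (13.5%) and 2014 lower (14.2%) of 14170 tested. Leaving out saline replicate 4 brought the count down to 1991, and holding the intronic share as a covariate brought it to 1190, with 558 higher (3.96%) and 632 lower (4.48%).

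Part of these differences followed the length of the transcript. When the genes were put in 10 bins of equal size by exon length, the bin with the shortest exons, 292 to 1387 bases, had a median log2 difference of 0.21, and 337 of its genes were higher against 12 lower. In the bin with the longest exons, 7950 to 107900 bases, the median was -0.21, and 27 genes were higher against 550 lower. The same slope stood between Miglyol and saline, whose medians were 0.24 in the shortest and -0.24 in the longest bin. Between tamoxifen and Miglyol the medians were -0.03 and 0.03. Library by library, the longest minus the shortest bin was -0.10, -0.47, -0.05 and 0.13 on the log2 scale in the tamoxifen libraries and 0.19, 0.23, 0.34 and 0.43 in the saline libraries, so the groups did not overlap in this measure. Every test was therefore run again after a smooth trend on exon length had been removed from each library.

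**Figure D1:**
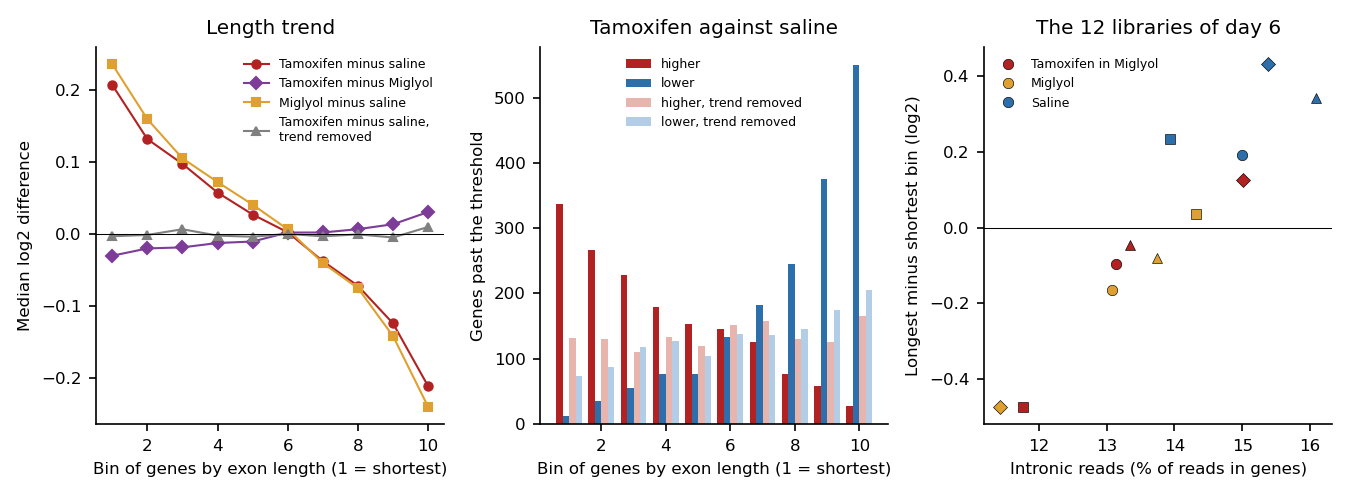
Left, the median log2 difference in each of 10 bins of genes by exon length. Middle, the number of genes past the threshold in each bin for tamoxifen against saline, with and without the trend removed. Right, the difference between the longest and the shortest bin in each day 6 library, plotted against its share of intronic reads. The slope against saline is seen for tamoxifen and for Miglyol, and after removal the calls are spread over all lengths.

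With the length trend removed 2668 genes differed (18.9%), 1357 higher (9.62%) and 1311 lower (9.29%). In all, 2099 genes passed both ways (14.9%), 1056 higher (7.49%) and 1043 lower (7.39%), and 0 of them changed sign. A further 1244 passed only before the trend was removed and 569 only after it. For the oil alone, Miglyol against saline, 1498 genes passed (10.6%) before removal, but only 113 higher (0.801%) and 244 lower (1.73%) after it. The first of these counts ran from 308 to 748 when saline replicate 2, 3 or 4 or Miglyol replicate 1, 3 or 4 was left out. For tamoxifen against Miglyol 801 passed (5.68%) before removal, and 747 higher (5.3%) and 444 lower (3.15%) after it. The first count was 429 without tamoxifen replicate 1, 471 without Miglyol replicate 1 and 526 without Miglyol replicate 2. The 3 comparisons share libraries, so their values are given side by side and nothing is drawn from their likeness. Below, "in both fits" means past the threshold with and without the length trend. The list counts below stand beside shares over all genes of 11.3% higher and 12.3% lower, and 7.49% and 7.39% in both fits.

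Genes of neutrophils were higher after tamoxifen by the widest margin, with the largest median of the 52 gene lists examined. The lists were chosen with earlier results of these data known, so the rank describes these lists only. Of the 27 genes of a neutrophil list, 19 had enough reads to be tested, and all 19 tested were higher after tamoxifen in both fits, where 7.49% of all tested genes were, with a median log2 difference of 3.16 before and 3.00 after removal of the length trend, where the median of all genes was 0.01. The read filter was met in the saline libraries alone by 18 of the 19, the exception being Padi4. S100a9, a subunit of the calcium-binding protein calprotectin, had 301, 312, 385 and 114 CPM in the tamoxifen libraries, against 26.5, 26.1, 25.5 and 33.0 CPM in the saline libraries. Every tamoxifen library lay above every saline library, and replicate 4 was the lowest of the tamoxifen libraries. S100a9 differed by 3.31 (SE 0.35, edgeR adjusted p = 0.000379), by 3.02 with the length trend removed, and by 3.57 without tamoxifen replicate 4. Its partner S100a8 had 214, 218, 279 and 77.0 CPM after tamoxifen, against 18.1, 18.2, 22.6 and 22.4 CPM after saline.

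The granule proteins moved with calprotectin. Ngp, a neutrophil granule protein of the cystatin family, had 70.7, 61.4, 96.4 and 21.2 CPM in the tamoxifen libraries, against 5.40, 2.90, 4.77 and 5.70 CPM in the saline libraries, a log2 difference of 3.71 (SE 0.48). Ltf, the iron binder lactoferrin, had 61.5, 52.0, 92.0 and 23.1 CPM after tamoxifen, against 4.90, 7.32, 5.52 and 7.60 CPM after saline. Camp, the antimicrobial peptide cathelicidin, had 16.2, 21.9, 27.2 and 5.51 CPM after tamoxifen, against 1.26, 1.14, 2.01 and 1.45 CPM after saline. None of these ranges overlapped. The genes of the stefin A family, inhibitors of cysteine proteases, rose with them: Stfa2 had 42.1, 44.1, 50.3 and 14.1 CPM after tamoxifen, against 2.51, 2.27, 2.64 and 3.35 CPM after saline, while Stfa3 differed by 3.63 (SE 0.41) and Stfa2l1 by 3.35 (SE 0.40). Wfdc21, a small secreted protein with a whey acidic protein domain that is not on the list, had 6.09, 5.52, 8.47 and 3.26 CPM after tamoxifen, against 0.754, 0.126, 0.627 and 0.362 CPM after saline. Retnlg, a resistin-like protein of neutrophils, had 48.8, 38.2, 60.6 and 9.18 CPM after tamoxifen, against 3.27, 2.78, 2.38 and 2.62 CPM after saline, with the same low replicate 4. Lcn2, which withholds iron from bacteria and is also made by stressed epithelium, had 166, 120, 121 and 85.1 CPM after tamoxifen, against 41.6, 53.0, 40.9 and 35.6 CPM after saline and differed by 1.53 (SE 0.20).

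Receptors and signals on the same list rose as well. Cxcr2, the chemokine receptor that draws neutrophils out of the blood, had 17.3, 14.2, 16.3 and 4.38 CPM in the tamoxifen libraries, against 2.76, 3.53, 3.77 and 3.98 CPM in the saline libraries. Its ranges did not overlap, and it differed by 1.88 (SE 0.34). Il1b, an inflammatory cytokine, had 9.64, 14.4, 17.2 and 3.37 CPM after tamoxifen, against 3.14, 3.41, 3.01 and 3.71 CPM after saline, and here replicate 4, the lowest of the tamoxifen libraries, lay inside the saline range. Csf3r, the receptor for the growth factor G-CSF, differed by 1.65 (SE 0.25). Among the 8 members with too few reads to test were the early granule enzymes Mpo and Elane, with 5 and 5 reads over the 4 tamoxifen libraries and 4 and 0 over the saline libraries, and Ly6g, a neutrophil surface protein, with 66 and 5 reads. Anxa1, a lipid-binding protein that many lung cells also make, had 234, 219, 215 and 164 CPM after tamoxifen, against 149.6, 148, 157 and 158 CPM after saline, and Chil1, a chitinase-like protein also found in type 2 cells, differed by 0.61 (SE 0.14), so Chil1, Anxa1 and Lcn2, the 3 members with the highest CPM in saline lungs, had the smallest log2 differences of the 19. The summed level of the tested members was 978 to 2097 CPM after tamoxifen, 680 to 779 CPM after Miglyol and 569 to 674 CPM after saline, with tamoxifen replicate 4 at the low end.

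With the oil alone 15 of the 19 genes had a log2 difference above 0 from saline with the length trend removed, and none passed the edgeR test. For S100a9 the Miglyol libraries had 58.1, 63.7, 51.6 and 73.1 CPM, a log2 difference from saline of 0.84 with the length trend removed (edgeR adjusted p = 0.246), and the tamoxifen libraries differed from them by 2.18 (edgeR adjusted p = 0.00324). Over the list, 0 of 19 passed in Miglyol against saline, 3 had an unadjusted p under 0.05, and the median was 0.77. Before removal 0 of 19 passed as well, 9 had an unadjusted p under 0.05, 18 lay above 0 and the median was 0.95. In tamoxifen against Miglyol 19 passed with the trend removed, with a median of 2.07. Among intron reads, which come mostly from RNA not yet spliced, 12 of 12 tested members were higher after tamoxifen than after saline, where 3136 of 12314 genes passed (25.5%), 1346 higher (10.9%) and 1790 lower (14.5%). With the intronic share as a covariate 16 of the 19 remained past the threshold, and Cxcr2 (1.40, edgeR adjusted p = 0.0620) and Il1b (1.08, 0.156) did not, nor did Chil1.

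**Figure D2:**
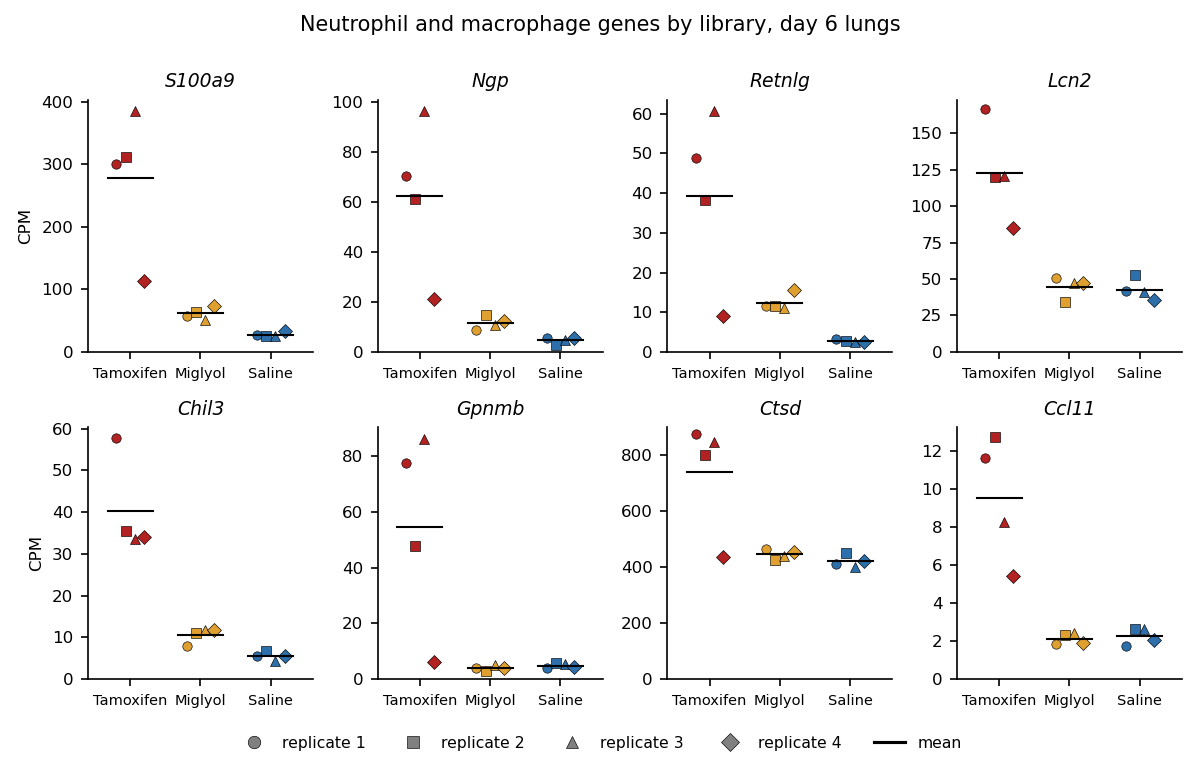
Level (CPM) of 8 genes in the 4 tamoxifen, 4 Miglyol and 4 saline libraries. Symbols mark the replicate, the line is the group mean, and each axis starts at 0. Replicate 4 of the tamoxifen group is the lowest of that group for every gene shown but Chil3, and for Gpnmb and Ctsd it stands near the saline level.

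The promoters of the neutrophil genes are shown because these genes moved together. C/EBP proteins are the transcription factors that drive granule genes during neutrophil maturation, and the sequence TTGCNNAA was searched for on both strands in RefSeq promoters of GRCm38.p6, from 250 bases before to 50 bases after each gene start. It was found in 8 of the 18 tested members with a promoter (44.4%), in 8.40% of the 11224 tested genes with a promoter, and in 10.8% of all 27025 promoters. A match describes the letters only. The capitals below mark it in Ngp (chr9:110419558-110419857, plus strand), S100a9 (chr3:90695672-90695971, minus strand), Retnlg (chr16:48872358-48872657, plus strand) and Ltf (chr9:111019042-111019341, plus strand).
Ngp: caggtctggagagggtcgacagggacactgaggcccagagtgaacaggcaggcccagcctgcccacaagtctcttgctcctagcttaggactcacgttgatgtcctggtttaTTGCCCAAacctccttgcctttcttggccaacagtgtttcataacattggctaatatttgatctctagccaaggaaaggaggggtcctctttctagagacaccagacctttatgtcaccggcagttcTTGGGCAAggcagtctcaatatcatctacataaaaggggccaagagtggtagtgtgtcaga
S100a9: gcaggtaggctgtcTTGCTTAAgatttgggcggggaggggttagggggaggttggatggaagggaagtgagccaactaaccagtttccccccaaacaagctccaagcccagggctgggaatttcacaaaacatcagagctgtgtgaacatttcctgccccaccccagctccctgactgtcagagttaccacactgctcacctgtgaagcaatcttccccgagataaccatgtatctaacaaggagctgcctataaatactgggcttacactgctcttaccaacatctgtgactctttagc
Retnlg: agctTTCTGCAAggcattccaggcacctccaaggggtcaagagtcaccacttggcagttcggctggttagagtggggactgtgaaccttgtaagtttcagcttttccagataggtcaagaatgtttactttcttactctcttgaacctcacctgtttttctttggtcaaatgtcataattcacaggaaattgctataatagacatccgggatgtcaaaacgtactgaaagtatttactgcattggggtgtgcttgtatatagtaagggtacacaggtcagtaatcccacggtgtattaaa
Ltf: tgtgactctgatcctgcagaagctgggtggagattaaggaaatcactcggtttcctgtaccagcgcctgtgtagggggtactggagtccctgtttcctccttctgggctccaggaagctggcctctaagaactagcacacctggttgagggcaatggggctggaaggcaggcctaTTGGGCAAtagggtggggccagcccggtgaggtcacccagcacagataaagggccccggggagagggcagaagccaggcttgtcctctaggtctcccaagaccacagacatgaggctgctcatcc

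Macrophage genes were higher as well, most of all those of macrophages loaded with lipid. A list of lipid-laden macrophages had 21 genes, all of them tested and 19 of them past the read filter in saline alone. Of these 21, 16 were higher and 0 lower, where 11.3% of all genes were higher. The median log2 difference was 0.75, and 15 were higher in both fits, where 7.49% of all genes were. The number higher was 5 with the intronic share as a covariate and 17 without tamoxifen replicate 4. Gpnmb, a membrane glycoprotein that macrophages make when their lysosomes are loaded, had 77.8, 47.9, 86.4 and 6.02 CPM in the tamoxifen libraries, against 3.89, 5.93, 5.27 and 4.53 CPM in the saline libraries. Replicates 1 to 3 of tamoxifen stood far above all saline libraries, while replicate 4 stood just above them. Gpnmb differed by 3.48 (SE 0.71) with an edgeR adjusted p of 0.00845 and by 3.85 without that library, and its call was lost with the intronic share as a covariate (2.62, adjusted p = 0.137). The Miglyol libraries held 3.98, 2.76, 5.09 and 3.90 CPM. Lgals3, the galectin of activated macrophages, had 103, 96.0, 102 and 47.0 CPM after tamoxifen, against 38.3, 47.6, 34.5 and 35.6 CPM after saline, and Trem2, a lipid receptor, differed by 1.46 (SE 0.27), each with replicate 4 down in the saline range. Apoe, the apolipoprotein that carries cholesterol out of macrophages, had 220, 169.6, 192 and 193 CPM after tamoxifen, against 126, 151, 114 and 117 CPM after saline, with no overlap between groups. Cd36, the fatty acid receptor, and Lpl, lipoprotein lipase, are also made by capillaries and fibroblasts of the lung, and they did not pass the test, at 0.13 (SE 0.08) and -0.04 (SE 0.10).

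Of 22 tested genes that mark alveolar macrophages 21 met the read filter in saline alone. Among the 22, 11 were higher and 0 lower, where 11.3% of all genes were higher. In both fits 8 were higher, where 7.49% of all genes were. Chil3, a chitinase-like protein these cells secrete, had 57.7, 35.5, 33.5 and 34.2 CPM in the tamoxifen libraries, against 5.53, 6.69, 4.27 and 5.43 CPM in the saline libraries, with 7.97, 11.1, 11.8 and 11.7 CPM after Miglyol. Every tamoxifen library lay above every saline library, and, as for Apoe, replicate 4 was level with replicates 2 and 3. Chil3 differed by 2.87 (SE 0.20) with an edgeR adjusted p of 2.07e-06. Some of its reads are shared with near copies (88% unique). Pla2g7, which hydrolyses platelet-activating factor, had 30.8, 29.9, 37.0 and 13.9 CPM after tamoxifen, against 9.29, 10.9, 13.9 and 11.8 CPM after saline. Marco, a scavenger receptor, differed by 0.85 (SE 0.17) and Bhlhe41, a transcription factor of resident macrophages, by 1.11 (SE 0.17). Of 27 tested genes of monocytes and interstitial macrophages, 25 of which met the read filter in saline alone, 16 were higher and 1 lower. In both fits 13 were higher and 1 lower, where 7.49% of all genes were higher and 7.39% lower. Itgam, the integrin CD11b shared by monocytes and neutrophils, differed by 1.22 (SE 0.29). Cd14, the receptor for bacterial lipopolysaccharide, had 22.3, 15.7, 19.8 and 11.7 CPM after tamoxifen, against 6.78, 9.85, 8.91 and 9.05 CPM after saline, and Lyz2, the lysozyme made by macrophages and by type 2 cells, had 1865, 1845, 1986 and 1895 CPM after tamoxifen, against 1210, 1329, 1206 and 1278 CPM after saline. The attractant Ccl2 stayed under 2 CPM in every library and did not pass at 1.05 (SE 0.55), although it passed without tamoxifen replicate 4 (edgeR adjusted p = 0.0219). Ccl2 did not meet the read filter in the saline libraries alone, so that pass lends no support.

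Lysosomal genes were higher in part. Of 28 genes of lysosomal enzymes and membrane proteins 13 were higher and 0 lower, 9 in both fits, with a median of 0.21 before and 0.14 after removal of the trend, where 11.3% of all genes were higher. With the intronic share as a covariate 1 of the 28 was higher, where 3.96% of all genes were, and 8 were higher without tamoxifen replicate 2 or 3 or saline replicate 3. Ctsd, the aspartic protease cathepsin D, had 876, 799, 847 and 437 CPM in the tamoxifen libraries, against 410.4, 449.6, 400.1 and 422 CPM in the saline libraries, so replicate 4 of tamoxifen stayed within the saline range while the other replicates stood well above it. It differed by 0.81 (SE 0.17), and Psap, the precursor of the saposins that help to degrade sphingolipids, by 0.52 (SE 0.11), with some shared reads. Atp6v0d2, a subunit of the lysosomal proton pump found in macrophages, had 63.6, 41.7, 43.7 and 23.6 CPM after tamoxifen, against 12.9, 18.7, 14.9 and 17.0 CPM after saline and differed by 1.43 (SE 0.25). Of the 16 genes of that pump 7 were higher, 4 of them in both fits, and 1 with the intronic share as a covariate. Lamp1, the main lysosomal membrane protein, differed by 0.16 (SE 0.06) and Lipa, the acid lipase, by -0.01 (SE 0.09), and neither passed, though Lamp1 did without tamoxifen replicate 4 (edgeR adjusted p = 0.013). The lipid-laden list and the lysosome list share 4 genes. The E-box CACGTG, which reads the same on both strands, was found in the promoters of 7 of 23 lysosomal members (30.4%) and in 9.71% of tested genes. Of the 8 members with a promoter that were higher in both fits, 1 holds it, Ctsd. Capitals mark it at 2 places in the promoter of Ctsd (chr7:142387778-142388077, minus strand).
Ctsd: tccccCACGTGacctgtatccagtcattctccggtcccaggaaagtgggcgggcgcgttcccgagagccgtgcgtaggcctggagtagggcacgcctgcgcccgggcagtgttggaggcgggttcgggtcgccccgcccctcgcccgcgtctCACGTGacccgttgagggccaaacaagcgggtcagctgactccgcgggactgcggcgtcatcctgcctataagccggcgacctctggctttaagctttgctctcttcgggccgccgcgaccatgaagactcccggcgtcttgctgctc

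Signals of type 2 immunity were mixed. Of 19 tested genes 6 were higher and 1 lower, where 11.3% of all genes were higher and 12.3% lower. With the length trend removed 6 were higher and 2 lower. The read filter was met in saline alone by 16, and 3 were higher without saline replicate 4. Ccl11, the eosinophil attractant eotaxin, had 11.6, 12.7, 8.29 and 5.40 CPM in the tamoxifen libraries, against 1.76, 2.65, 2.64 and 2.08 CPM in the saline libraries, with 1.83, 2.32, 2.44 and 1.90 CPM after Miglyol. The tamoxifen range lay wholly above both others, and Ccl11 differed from saline by 2.06 (SE 0.25) with an edgeR adjusted p of 3.92e-05. Retnla, a resistin-like protein of alternatively activated macrophages and epithelium, had 239, 406, 90.2 and 42.1 CPM after tamoxifen, against 31.8, 47.8, 30.2 and 22.4 CPM after saline, with a wide spread after tamoxifen and 52.6, 88.0, 77.8 and 70.7 CPM after Miglyol, and its edgeR adjusted p was 0.0579 without saline replicate 3 and 0.0699 without saline replicate 4. Areg, the growth factor amphiregulin, differed by 1.79 (SE 0.38). Prg2, the major basic protein of eosinophils, had 5.76, 0.986, 4.96 and 1.02 CPM after tamoxifen, against 0.251, 0.757, 0.126 and 0.0905 CPM after saline. With few reads in saline, it did not meet the read filter in the saline libraries alone, and its edgeR adjusted p was 0.0624 without saline replicate 4. Gata3, a transcription factor of type 2 lymphocytes, was lower, at -0.59 (SE 0.15). The cytokines Il4, Il5 and Il13 had too few reads to test, with 2, 20 and 10 reads over the tamoxifen libraries and 0, 10 and 1 over the saline libraries. Among B cell genes 4 of 17 tested were higher in both fits, where 7.49% of all genes were, and 1 with the intronic share as a covariate. Cd79a, a subunit of the B cell receptor, had 17.2, 22.2, 17.9 and 17.2 CPM after tamoxifen, against 11.3, 11.9, 13.2 and 12.7 CPM after saline. Its call was lost with that covariate (0.34, edgeR adjusted p = 0.228). Of 20 T and NK cell genes 1 was higher and 1 lower.

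**Figure D3:**
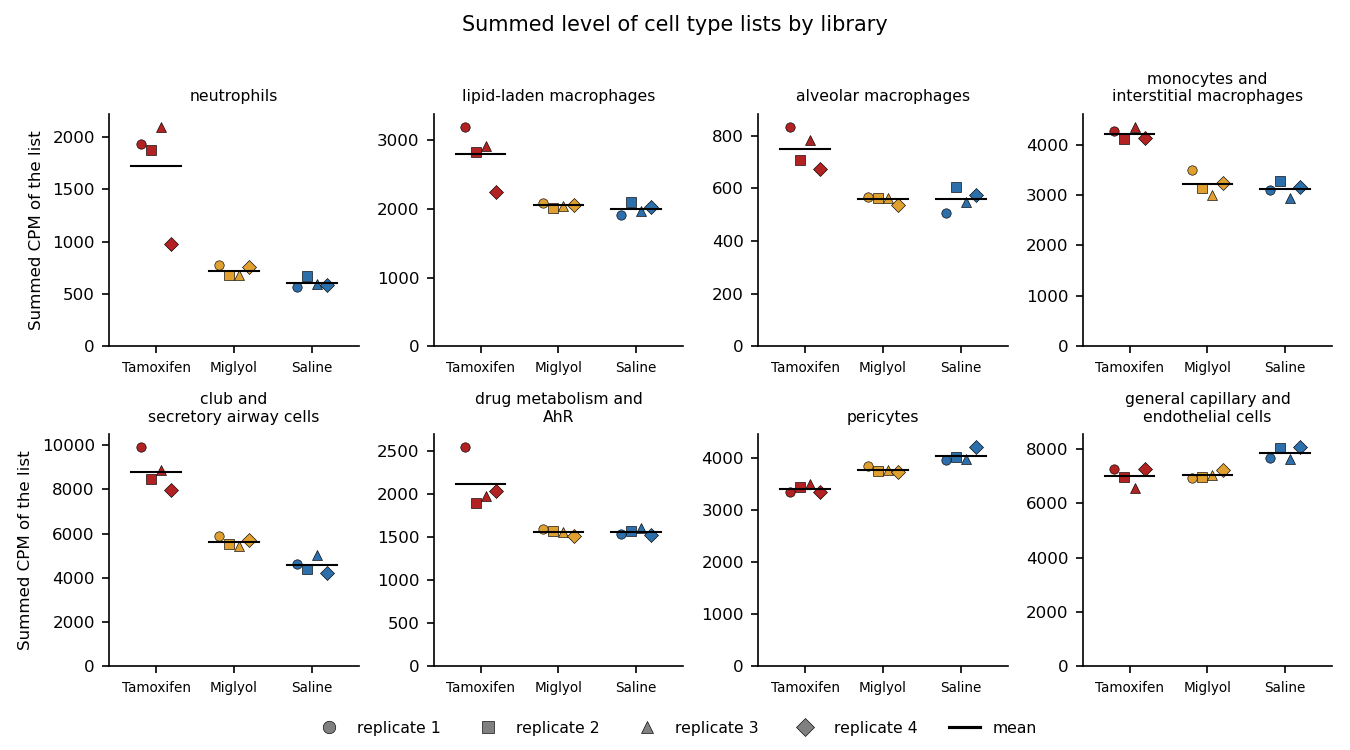
Summed level (CPM) of the tested members of 8 gene lists in each library, with the group mean as a line and axes that start at 0. Neutrophil, macrophage and club cell lists stand higher in the tamoxifen libraries, with replicate 4 low for neutrophils and lipid-laden macrophages. The pericyte list stands below both other groups. The endothelial list stands below saline but overlaps with Miglyol.

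Genes of the airway lining were higher too. Of 16 tested genes of club and secretory cells, 11 of which met the read filter in saline alone, 9 were higher and 0 lower. The median was 0.99, and 8 were higher in both fits, where 7.49% of all genes were. Scgb1a1, the main secretory protein of club cells, had 7723, 6452, 6558 and 6179 CPM in the tamoxifen libraries, against 3410, 3130, 3686 and 3154 CPM in the saline libraries, a log2 difference of 1.01 (SE 0.08), and of 0.74 with the length trend removed, its exons being 468 bases long. Scgb3a2, a secretoglobin of the distal airway, differed by 0.83 (SE 0.13). Hp, the haemoglobin binder haptoglobin, had 361, 281, 279 and 257 CPM after tamoxifen, against 159, 179.7, 157 and 165 CPM after saline and differed by 0.83 (SE 0.08). For Scgb1a1 and Hp the groups stood fully apart, replicate 4 included. Bpifa1, an airway defence protein, had 3.88, 5.42, 8.74 and 7.95 CPM after tamoxifen, against 1.51, 1.77, 0.879 and 0.0905 CPM after saline. It did not meet the read filter in the saline libraries alone. Scgb3a1, a secretoglobin of larger airways, varied within each group, at 7.98, 20.5, 164 and 41.1 CPM after tamoxifen, against 8.54, 11.0, 11.9 and 0.905 CPM after saline, and its difference of 2.94 (SE 1.15) did not pass (edgeR adjusted p = 0.0954). Ciliated cell genes were higher in 7 of 28, and in 4 of them with the trend removed, and in 2 without saline replicate 4.

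In the alveolar epithelium, type 2 cell genes were higher in 10 of 25 and lower in 0, where 11.3% of all genes were higher. In both fits 9 were higher, where 7.49% of all genes were. The collectins Sftpa1 and Sftpd, which bind microbes, had 2087, 1797, 1758 and 1492 CPM after tamoxifen, against 1006, 1133, 1110 and 1178 CPM after saline, and 723, 621, 573 and 470 CPM after tamoxifen, against 331, 366, 359 and 350.1 CPM after saline. They differed by 0.69 (SE 0.08) and 0.76 (SE 0.10), and the groups did not overlap. Ctsh, a cathepsin that trims surfactant proteins, differed by 0.73 (SE 0.13). Sftpc differed by 0.26 (SE 0.10) and did not pass, with 0.05 after removal of the trend, though without tamoxifen replicate 3 it did (edgeR adjusted p = 0.0268). Of 21 type 1 cell genes 4 were higher and 2 lower, near the share called over all genes (23.7%), and without tamoxifen replicate 4 the number lower was 5. Hopx, a transcription cofactor of type 1 cells, had 294, 289, 268 and 262 CPM after tamoxifen, against 208, 211, 206 and 187 CPM after saline. Igfbp2, which binds insulin-like growth factors and marks mature type 1 cells, went the other way, with 33.7, 44.4, 27.7 and 40.4 CPM after tamoxifen, against 80.8, 86.7, 70.9 and 82.1 CPM after saline and 84.9, 88.8, 86.3 and 115 CPM after Miglyol, a difference from saline of -1.14 (SE 0.13) with an edgeR adjusted p of 7.92e-05.

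Of 26 tested genes of drug metabolism, 23 of which met the read filter in saline alone, 12 were higher and 2 lower. In both fits 8 were higher and 2 lower, where 7.49% of all genes were higher and 7.39% lower. Fmo2, the flavin monooxygenase of the mouse lung, had 710.2, 314, 383 and 392 CPM in the tamoxifen libraries, against 153, 149.7, 176 and 172 CPM in the saline libraries, with 147, 156, 150.5 and 113 CPM after Miglyol. Its lowest tamoxifen library stood well above the highest saline library, and Fmo2 differed by 1.47 (SE 0.23) (edgeR adjusted p = 0.00206), with 1.48 after removal of the trend. Cyp2f2, the cytochrome P450 of club cells, differed by 0.64 (SE 0.08). The 2 members that were lower were Cyp2e1, a cytochrome P450 best known from liver, at -1.24 (SE 0.36), which did not pass without tamoxifen replicate 2 (edgeR adjusted p = 0.0621), tamoxifen replicate 3 (0.0614) or saline replicate 4 (0.142), and the receptor Ahr, with 187, 183, 177 and 177 CPM after tamoxifen, against 215, 222, 249.5 and 245 CPM after saline. Cyp1a1, the P450 that Ahr switches on, had 3.77, 5.82, 0.811 and 6.12 CPM after tamoxifen, against 3.14, 0.757, 0.502 and 0.634 CPM after saline, ranges that overlapped, and did not pass (1.74 (SE 0.95)). Inmt, a methyltransferase of small amines found in lung fibroblasts, had 57.8, 22.2, 20.6 and 25.2 CPM after tamoxifen, against 6.91, 7.57, 8.28 and 6.43 CPM after saline and differed by 2.10 (SE 0.34).

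Antioxidant genes were higher in part. Of 23 genes, 22 of which met the read filter in saline alone, 15 were higher and 0 lower, where 11.3% of all genes were higher. In both fits 12 were higher, where 7.49% of all genes were. The median was 0.42 before and 0.28 after removal of the trend, and 6 were higher with the intronic share as a covariate. Prdx6, a peroxiredoxin that also handles surfactant phospholipid, had 387, 274, 247 and 240.4 CPM after tamoxifen, against 171, 179.6, 177 and 182 CPM after saline. Gclc, the rate-limiting enzyme of glutathione synthesis, differed by 0.50 (SE 0.08) and Gpx2, a glutathione peroxidase, by 1.41 (SE 0.26), but Gclm, the partner of Gclc, by -0.06 (SE 0.08), which did not pass. Slc7a11, which imports cystine for glutathione, differed by 1.53 (SE 0.34), with some shared reads and few reads in saline. It did not meet the read filter in the saline libraries alone. Mgst1, a microsomal glutathione transferase, had 169, 154, 146 and 142 CPM after tamoxifen, against 106, 109, 116 and 110.3 CPM after saline and differed by 0.47 (SE 0.06). The core of the antioxidant response element, TGACNNNGC on either strand, was found in 6 of 18 promoters of the list (33.3%) and in 14.7% of tested genes. Of the 7 members with a promoter that were higher in both fits, 1 holds it, Mgst1. It is marked in the promoter of Mgst1 (chr6:138140277-138140576, plus strand).
Mgst1: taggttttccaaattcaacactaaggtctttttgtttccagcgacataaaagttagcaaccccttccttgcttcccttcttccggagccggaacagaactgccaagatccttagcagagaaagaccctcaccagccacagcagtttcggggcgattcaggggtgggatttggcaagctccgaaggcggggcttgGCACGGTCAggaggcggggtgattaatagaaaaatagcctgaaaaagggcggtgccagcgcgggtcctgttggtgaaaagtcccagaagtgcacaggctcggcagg

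Targets of the glucocorticoid receptor were also higher, in 11 of 18 with 1 lower, and in 9 in both fits, where 7.49% of all genes were. Per1, a clock gene that glucocorticoids induce directly, had 96.3, 77.0, 83.0 and 71.7 CPM in the tamoxifen libraries, against 54.6, 50.9, 41.9 and 41.8 CPM in the saline libraries, and the groups did not overlap. It differed by 0.80 (SE 0.11) from saline, while the Miglyol libraries had 40.3, 32.7, 46.5 and 38.4 CPM. Hsd11b1, the enzyme that regenerates active glucocorticoid in the cell, differed by 0.70 (SE 0.11), Fkbp5, a chaperone of the receptor, by 0.59 (SE 0.12), and Zbtb16, a zinc finger repressor, by 1.09 (SE 0.23). The receptor gene Nr3c1 was lower at -0.31 (SE 0.07), and missed the threshold with the trend removed (-0.14, edgeR adjusted p = 0.0535). The core ACANNNTGT of its response element was in 2 of 14 promoters of the list (14.3%) and in 4.26% of tested genes. Of 23 immediate early genes, which cells switch on soon after a signal, 8 were higher and 0 lower in both fits. With the intronic share as a covariate 4 of them were higher, where 3.96% of all genes were. Maff had 25.9, 34.7, 32.4 and 22.8 CPM after tamoxifen, against 18.2, 16.7, 13.2 and 13.9 CPM after saline, Junb differed by 0.67 (SE 0.12) and Atf3 by 1.21 (SE 0.22). Of 19 clock genes 3 were higher, Per1 and the repressors Bhlhe40 and Bhlhe41, and 2 lower, and 5 were higher and 0 lower with the trend removed. Bhlhe40 differed by 0.96 (SE 0.14).

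Oestrogen receptor genes were barely expressed. Esr1 had 0.886, 0.394, 0.271 and 1.33 CPM after tamoxifen, against 1.51, 1.14, 0.627 and 1.63 CPM after saline, and Esr2 had 1.88, 0.887, 0.992 and 2.75 CPM after tamoxifen, against 2.26, 2.15, 1.76 and 2.35 CPM after saline. Neither passed, at -0.82 (SE 0.47) and -0.41 (SE 0.32). Of 21 tested receptor targets and cofactors 2 were higher and 8 lower, and 2 and 5 with the length trend removed or without saline replicate 4. The 2 rises were Areg and Ctsd. The median was -0.27. In Miglyol against saline 5 of the 21 were lower and 0 higher, with a median of -0.22. With the trend removed 1 was lower there, where 1.73% of all genes were. In tamoxifen against Miglyol 2 were higher and 2 lower, with a median of 0.05. Greb1, a cofactor that oestrogen induces, had 7.87, 6.90, 8.20 and 7.34 CPM after tamoxifen, against 11.1, 12.6, 9.41 and 11.4 CPM after saline, a fall of 0.55 (SE 0.12). Ccnd1, the cyclin that starts the cell cycle, differed by -0.29 (SE 0.06), with many shared reads. Cxcl12, the attractant of stem and immune cells, had 209.6, 228, 258 and 308 CPM after tamoxifen, against 324, 358, 333 and 349.7 CPM after saline. Among the cofactors of the receptor, Ncoa1, Ncoa2, Ncor1 and Nrip1 were lower before the length trend was removed, and none of them passed after it. Gata3, given above, was lower in both fits.

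The counts for genes of sterol and fat metabolism changed with the fit. Of 20 genes of cholesterol synthesis 3 were higher and 0 lower after tamoxifen, where 11.3% of all genes were higher. There were 6 higher without tamoxifen replicate 4, and 4 higher after Miglyol with the length trend removed. With the intronic share as a covariate 0 of the 20 were higher, where 3.96% of all genes were. In tamoxifen against Miglyol 3 of the 20 lay above 0. Msmo1, a demethylase of the pathway, had 36.9, 37.6, 32.1 and 27.9 CPM after tamoxifen, 34.8, 36.9, 32.3 and 35.3 CPM after Miglyol and 26.8, 23.4, 23.7 and 26.3 CPM after saline. Among genes of fatty acid oxidation and the receptor PPAR, 6 of 28 were higher, where 11.3% of all genes were. With the trend removed 4 were higher, where 9.62% of all genes were. The number was 3 without saline replicate 4 and 2 with the intronic share as a covariate. Fabp4, a fatty acid carrier of macrophages and fat cells, had 9.64, 10.8, 12.4 and 12.8 CPM after tamoxifen, against 5.53, 5.93, 6.15 and 4.07 CPM after saline and 5.26, 12.5, 11.9 and 9.71 CPM after Miglyol. Plin2, which coats lipid droplets, had 152, 137, 138 and 110.5 CPM after tamoxifen, against 101, 115, 98.7 and 103 CPM after saline and differed by 0.37 (SE 0.08).

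**Figure D4:**
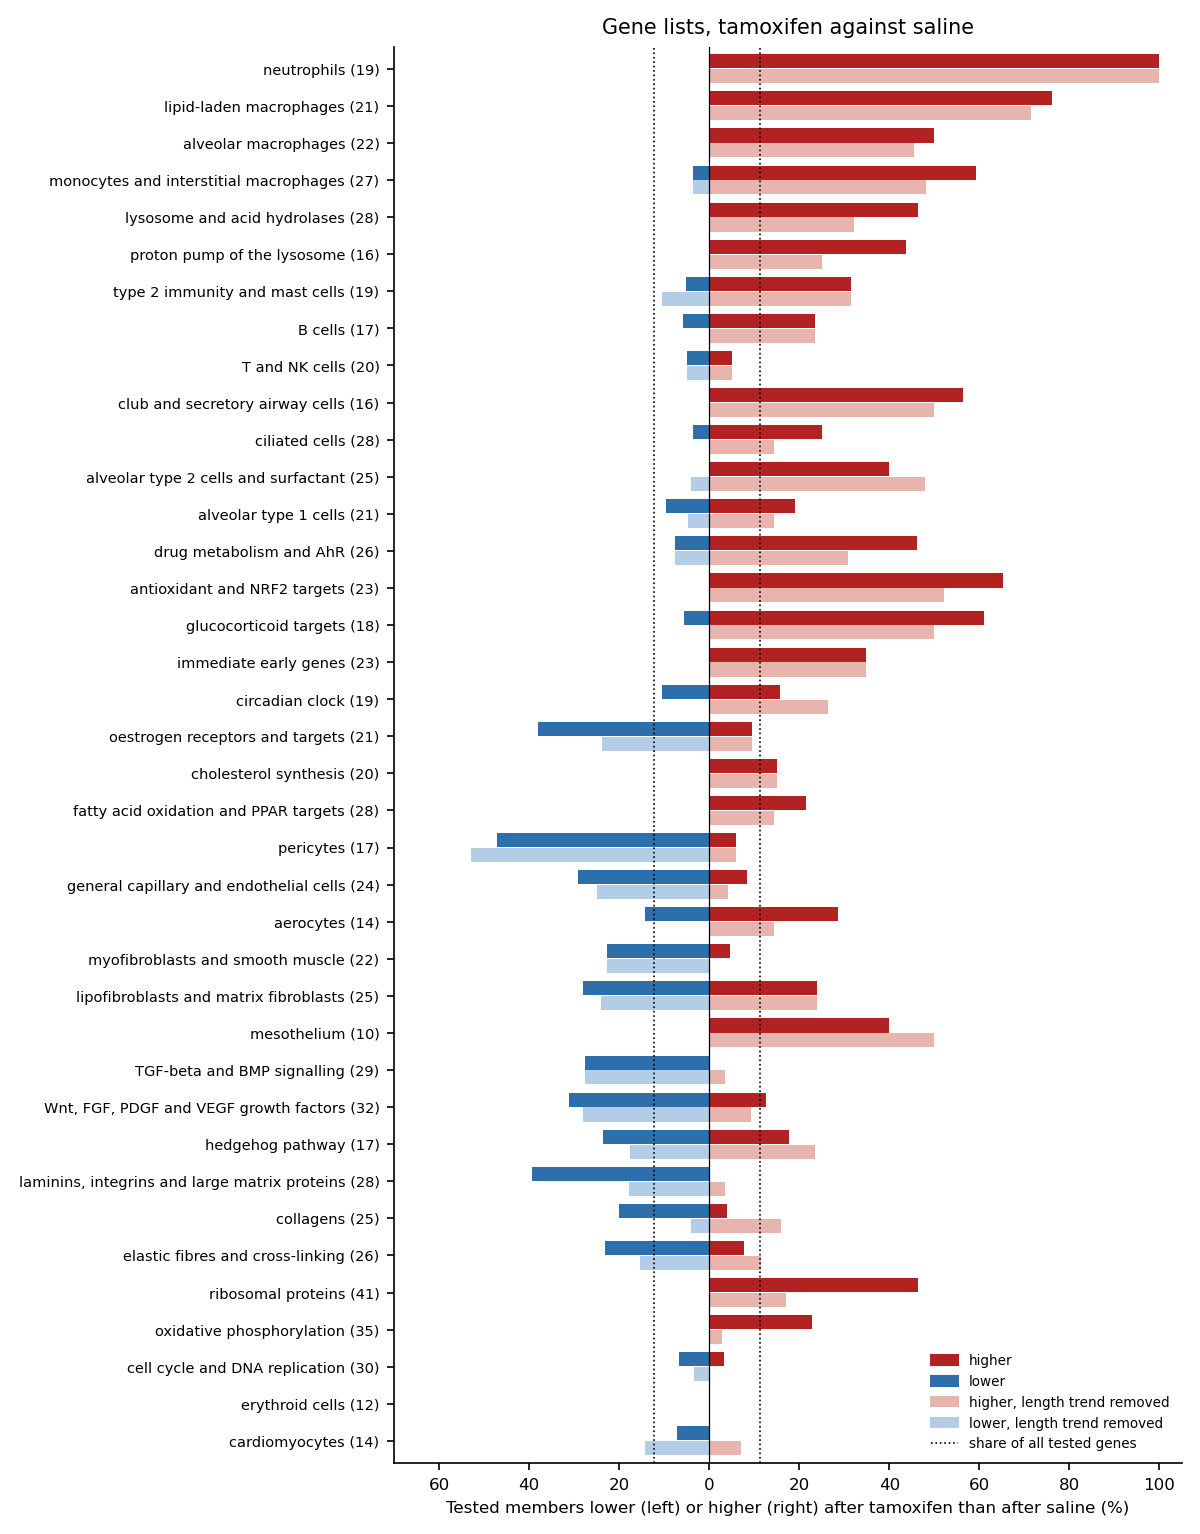
Share of the tested members of each gene list past the threshold for tamoxifen against saline, higher to the right and lower to the left, before (dark) and after (pale) removal of the exon length trend. The number of tested members stands in parentheses, and dotted lines mark the shares over all genes, 11.3% higher and 12.3% lower. The neutrophil list reaches 100% in both fits, while the ribosomal and oxidative phosphorylation lists shrink after removal.

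The largest falls included many genes of low level, and several of the genes are better known from nerve cells. Thsd7b, a membrane protein with thrombospondin repeats (gene ID 210417, chromosome 1, 129273304 to 130219278 in the files' coordinates), had 0.997, 2.27, 1.17 and 1.22 CPM in the tamoxifen libraries, against 8.41, 11.2, 10.9 and 13.1 CPM in the saline libraries. The groups were far apart, and the Miglyol libraries, at 6.93, 6.40, 6.09 and 7.07 CPM, lay between them. Thsd7b fell by 2.94 (SE 0.21, edgeR adjusted p = 5.12e-07), by 2.62 with the length trend removed, and its intron reads fell by 2.35. Slitrk6, a membrane protein that shapes nerve fibres, had 12.6, 20.7, 17.3 and 21.4 CPM in the tamoxifen libraries, against 50.1, 55.5, 66.6 and 70.5 CPM in the saline libraries. Miglyol left it at 67.2, 61.6, 56.8 and 37.1 CPM, and it fell by 1.75 (SE 0.20) after tamoxifen. Npy2r, a receptor for neuropeptide Y, had 1.99, 1.97, 1.62 and 3.37 CPM after tamoxifen, against 5.78, 5.17, 8.41 and 9.05 CPM after saline, and Prokr2, a prokineticin receptor, had 0.222, 1.18, 0.811 and 1.94 CPM after tamoxifen, against 3.64, 5.55, 4.77 and 4.89 CPM after saline. Neither overlapped with saline. Lmo3, a cofactor of transcription, differed by -2.10 (SE 0.37), Crabp1, a carrier of retinoic acid, by -2.05 (SE 0.35), Csmd3, a large membrane protein, by -3.12 (SE 0.51), Pcdh15, a cadherin of sensory hair cells, by -1.81 (SE 0.44), and Tmem74, a lysosomal membrane protein, by -2.12 (SE 0.39). Intron reads of Lmo3 were lower too, at -1.42 (edgeR adjusted p = 0.0348), but those of Csmd3 and Pcdh15 did not pass, at -0.29 (0.556) and -0.12 (0.609), and for all reads in genes the difference of Csmd3 was -1.31. The set of the 12 largest falls was made up by Zbtb20, Fam163a (-2.35 (SE 0.55)) and Plcxd3 (-2.29 (SE 0.53)). For Slitrk6, Npy2r, Prokr2 and Lmo3 the oil alone gave differences from saline between -0.07 and 0.35 with the trend removed, and none passed.

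Zbtb20 was low in both oil groups. This gene of a zinc finger repressor (gene ID 56490, chromosome 16, 42875853 to 43621944) had 1.22, 2.37, 2.43 and 3.26 CPM after tamoxifen, 2.47, 4.74, 4.76 and 3.69 CPM after Miglyol and 10.1, 13.1, 13.7 and 16.6 CPM after saline. Every library of the tamoxifen and Miglyol groups lay below every saline library. Before removal of the length trend Zbtb20 fell by 2.52 (SE 0.24, edgeR adjusted p = 1.2e-05) in tamoxifen against saline. The oil alone differed from saline by -1.54 (edgeR adjusted p = 0.00336) with the trend removed, and tamoxifen differed from the oil by -0.74 (adjusted p = 0.0719). Its intron reads fell by 0.53, less than its exon reads.

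**Figure D5:**
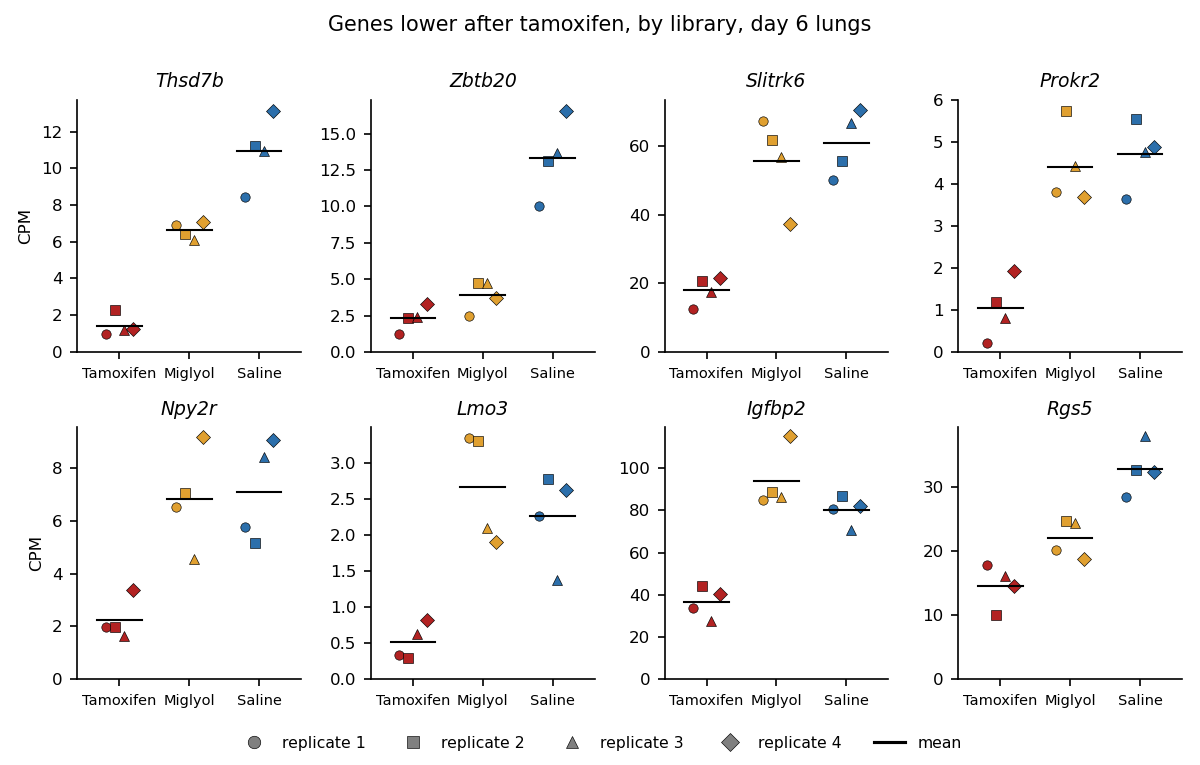
Level (CPM) of 8 genes that were lower after tamoxifen, in the 4 libraries of each group, with the mean as a line and axes that start at 0. Zbtb20 is also low after Miglyol, Thsd7b and Rgs5 stand between the groups there, and the other 5 are near or above the saline level.

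Part of the pericyte genes and of the general endothelial genes were lower by modest amounts, where 12.3% of all genes were lower. Of 17 tested pericyte genes 8 were lower and 1 higher, and 9 and 1 with the trend removed. Rgs5, a regulator of G protein signals and a pericyte marker, had 17.7, 9.96, 16.1 and 14.5 CPM in the tamoxifen libraries, against 28.4, 32.6, 37.9 and 32.2 CPM in the saline libraries, with 20.1, 24.6, 24.4 and 18.7 CPM after Miglyol. The tamoxifen libraries lay below both other groups, and Rgs5 fell by 1.17 (SE 0.14, edgeR adjusted p = 6.85e-05) against saline before removal of the length trend. Miglyol differed from saline by -0.72 with the trend removed (adjusted p = 0.0445), and tamoxifen from Miglyol by -0.57 (adjusted p = 0.0696). The subunits of soluble guanylate cyclase, the receptor for nitric oxide, were both lower: Gucy1a3 had 481, 482, 494 and 484 CPM after tamoxifen, against 624, 639, 669 and 709 CPM after saline, and Gucy1b3 differed by -0.41 (SE 0.06). Pdgfrb, the growth factor receptor of pericytes, had 302, 316, 315 and 306 CPM after tamoxifen, against 373, 388, 379 and 402 CPM after saline. Kcnj8, a potassium channel of pericytes, was the 1 member higher, at 0.41 (SE 0.10). Of 24 general endothelial genes 7 were lower and 2 higher, and 4 were lower without tamoxifen replicate 3 or saline replicate 2 or 4. In Miglyol against saline 4 of the 24 were lower, with a median of -0.12. With the trend removed 2 were lower there, where 1.73% of all genes were. In tamoxifen against Miglyol 1 was higher and 0 lower, with a median of -0.003. Cdh5, the cadherin of endothelial junctions, had 756, 680.3, 743 and 822 CPM after tamoxifen, against 919.9, 960, 882 and 916 CPM after saline, with 739.6, 779.7, 768 and 761 CPM after Miglyol, which also passed against saline (-0.26, edgeR adjusted p = 0.0198). Calcrl, a receptor for adrenomedullin, differed by -0.49 (SE 0.09). Of 14 genes of aerocytes, the capillary cells of gas exchange, 4 were higher and 2 lower, and 2 and 0 in both fits, with 2 higher without tamoxifen replicate 1 or saline replicate 3.

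Fibroblast genes split. Of 25 tested genes of lipofibroblasts and matrix fibroblasts 6 were higher and 7 lower, and 6 and 5 in both fits. Gsn, the actin-severing protein gelsolin, had 905, 726, 799.9 and 780.5 CPM after tamoxifen, against 572, 574, 488 and 511 CPM after saline, and Pi16, a marker of fibroblasts around large vessels, differed by 1.39 (SE 0.22). Wnt2, a signal to the alveolar epithelium, had 54.3, 72.3, 63.0 and 71.5 CPM after tamoxifen, against 85.2, 86.7, 82.3 and 90.8 CPM after saline, and Fgf10, a growth factor of distal lung mesenchyme, differed by -0.42 (SE 0.11). Pdgfra, the receptor that defines alveolar myofibroblasts and their precursors, had 210.4, 184, 196 and 196 CPM after tamoxifen, against 227, 273, 277 and 307 CPM after saline, a difference of -0.46 (SE 0.08). Of 22 genes of myofibroblasts and smooth muscle 5 were lower and 1 higher, with 2 or 3 lower without tamoxifen replicate 1 or 3 or saline replicate 2, 3 or 4. Among mesothelial genes 4 of 10 were higher, led by Msln with 188, 188, 176 and 175 CPM after tamoxifen, against 123, 121, 118 and 122 CPM after saline.

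Of 29 genes of TGF-beta and BMP signalling 8 were lower and 0 higher, where 12.3% of all genes were lower. In both fits 6 were lower, where 7.39% of all genes were. The number lower was 5 without tamoxifen replicate 1 or 3 or saline replicate 4, and 4 with the intronic share as a covariate. Bmp4, a growth factor of lung budding and vessels, had 71.1, 62.1, 63.8 and 61.6 CPM after tamoxifen, against 90.7, 83.7, 82.1 and 85.4 CPM after saline, Bmp5 differed by -0.67 (SE 0.11) and the receptor gene Bmpr2 by -0.45 (SE 0.09). Of 32 genes of Wnt, FGF, PDGF and VEGF signals 10 were lower and 4 higher, 8 and 3 in both fits. Angpt2, which loosens vessel walls, had 4.99, 8.18, 6.31 and 8.97 CPM after tamoxifen, against 8.92, 16, 12.4 and 14.2 CPM after saline, with many shared reads and replicate 4 of tamoxifen just inside the saline range. Vegfa, which guides capillaries, differed by 0.02 (SE 0.08) and did not pass. Of 17 genes of the hedgehog pathway 3 were higher and 4 lower, 3 and 3 in both fits, with 1 lower without tamoxifen replicate 1 or 3 or saline replicate 2, and 2 without saline replicate 1, 3 or 4. Smo, the signal transducer, had 74.8, 77.5, 86.1 and 95.2 CPM after tamoxifen, against 128, 122, 108 and 113 CPM after saline. It differed by -0.50 (SE 0.08), with no overlap between groups. Gli1, the transcription factor that reports pathway activity, had 62.9, 65.5, 71.1 and 57.5 CPM after tamoxifen, 42.2, 44.4, 41.6 and 47.0 CPM after Miglyol and 60.9, 53.5, 53.7 and 47.9 CPM after saline. It was higher after tamoxifen than after saline (0.26 (SE 0.08)), a call lost without any 1 of 5 libraries (edgeR adjusted p from 0.0545 to 0.115), and lower after Miglyol than after saline (-0.30 with the trend removed, edgeR adjusted p = 0.0442).

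The counts for matrix genes depended on the length trend. Of 28 genes of laminins, integrins and other large matrix proteins, with a median exon length of 6142 bases, 11 were lower and 0 higher before removal, and 5 were lower and 1 higher after it, and 6 or 7 were lower before removal without tamoxifen replicate 3 or saline replicate 2 or 4. In Miglyol against saline 13 of the 28 were lower before removal and 3 after. Of 25 collagen genes 5 were lower and 1 higher before, and 1 lower and 4 higher after, but 5 lower and 4 higher when the trend was removed by a spline. Before removal 9 were lower without tamoxifen replicate 4, and 3 without tamoxifen replicate 1 or saline replicate 2. Col4a1, a chain of the basement membrane, had 2836, 2476, 2967 and 2855 CPM after tamoxifen, against 3358, 3608, 3156 and 3523 CPM after saline, and its difference of -0.29 (SE 0.07) became -0.18 with the trend removed. Col1a1, the main fibrillar collagen, and Eln, the gene of elastin, did not pass, at -0.20 (SE 0.12) and 0.20 (SE 0.09), though Eln was past the threshold at 0.26 without tamoxifen replicate 4 (edgeR adjusted p = 0.0304). Fbn2, the fibrillin of developing elastic fibres, was lower in both fits, with 54.6, 51.4, 62.8 and 72.0 CPM after tamoxifen, against 96.3, 96.2, 85.6 and 110.2 CPM after saline.

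At the other end of the length scale, 19 of 41 ribosomal protein genes, with a median exon length of 780 bases, were higher and 0 lower before removal, and 7 after it, with a median of 0.26 before and 0.05 after. When the trend was removed by a spline instead, 2 were higher and 6 lower. Before removal the number higher was 35 without tamoxifen replicate 4, 9 without tamoxifen replicate 2 or saline replicate 4, 11 without saline replicate 2 and 12 without saline replicate 3, and 1 with the intronic share as a covariate. Many of their reads are shared with near copies. Oxidative phosphorylation genes, subunits of the respiratory chain, were higher in 8 of 35 before removal and in 1 after it, with medians of 0.22 and -0.05. Removal by a spline left 0 higher and made 15 of 35 lower, so their direction rests on how the trend is removed, and before removal the 8 became 1 to 3 without tamoxifen replicate 2 or 3 or saline replicate 2, 3 or 4. As for the oil, 13 of the 35 were higher in Miglyol against saline before removal and 0 after. Atp5e, a subunit of ATP synthase with exons of 414 bases, differed by 0.35 (SE 0.11) before and 0.05 after, and the first call was lost without any 1 of 5 libraries, with edgeR adjusted p from 0.0627 to 0.0975. Dgkh, a kinase of diacylglycerol with exons of 26362 bases, had 78.3, 77.3, 94.8 and 94.3 CPM after tamoxifen, against 121, 120.5, 128 and 144 CPM after saline, and its difference of -0.58 (SE 0.09) became -0.14 (edgeR adjusted p = 0.173). Likewise Trim2 and Btbd7, with exons of 10340 and 12122 bases, were at -0.38 and -0.40 before and -0.16 and -0.14 after. Among short genes Cyb5a, Chrac1 and Dynlrb2 were at 0.39, 0.43 and 0.59 before and 0.16, 0.21 and 0.33 after, past the threshold only before.

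The largest rise belonged to Prmt8, an arginine methyltransferase known from the brain (gene ID 381813, chromosome 6, 127689009 to 127769159). It had 88 reads over the 4 tamoxifen libraries, 3 reads over the Miglyol libraries and 3 reads over the saline libraries, and 3.54, 1.48, 1.98 and 1.94 CPM in the single tamoxifen libraries. Per exon read sequenced the tamoxifen share was 26.0 times the saline share, with an exact binomial interval of 8.61 to 128 at 95% that covers counting error only. All 4 tamoxifen libraries lay above all others. The gene met the read filter only through the tamoxifen group, so its test is not given. Of the other 11 of the 12 largest rises only Wfdc21, given above, and Fer1l6, a ferlin, belong to none of the gene lists. Fer1l6 had 4.10, 3.94, 2.62 and 0.510 CPM after tamoxifen, against 0.126, 0.126, 0.502 and 0.181 CPM after saline, a difference of 3.52 (SE 0.84). Like Wfdc21 it did not meet the read filter in the saline libraries alone.

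The other lists are given by their counts, where 11.3% of all genes were higher and 12.3% lower. Among cell cycle genes 1 of 30 was higher and 2 lower, and the number lower was 10 without tamoxifen replicate 3 and 0 or 1 without tamoxifen replicate 1, 2 or 4 or saline replicate 1, 3 or 4. In tamoxifen against Miglyol all 30 lay below 0, with a median of -0.26, and 1 of them passed with the trend removed. Mki67, a marker of dividing cells, did not pass at -0.28 (SE 0.14), though without tamoxifen replicate 3 it was lower by that test (edgeR adjusted p = 0.0057). Interferon response genes were higher in 2 of 26 and lower in 1, genes of antigen presentation in 1 and 1 of 19 (6 lower without tamoxifen replicate 2), and genes of the unfolded protein response in 2 and 1 of 26. Erythroid genes passed in 0 of 12 in the edgeR fits with and without the length trend, with 2 at an unadjusted p under 0.05 in either, in 1 higher and 1 lower without tamoxifen replicate 4 and in 1 higher without saline replicate 4, and their summed level overlapped between groups at 12010 to 28560 CPM after tamoxifen and 14230 to 22060 CPM after saline. Of 14 cardiomyocyte genes 0 were higher and 1 lower. Splicing factor genes were higher in 5 of 27 (2 or 3 without tamoxifen replicate 1 or 2 or saline replicate 2 or 4), lung lineage transcription factors in 5 (3 without saline replicate 4) and lower in 2 of 24, and insulin-like growth factor and imprinted genes in 4 and 3 of 18.

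Of the 127 genes given here with levels or fold changes, 112 passed for tamoxifen against saline. These include Prmt8, Fer1l6, Wfdc21, Prg2, Bpifa1 and Slc7a11, which did not meet the read filter in the saline libraries alone. The filter favours a rise in such genes, so their passes lend no support to the counts. Of the 112, 79 also passed with the intronic share of each library as a covariate. Those that did not include the macrophage and lysosome genes Ctsd, Gpnmb, Itgam, Lgals3, Pla2g7 and Psap, the neutrophil genes Chil1, Cxcr2 and Il1b, and the growth factor genes Fgf10, Cxcl12 and Areg. By list, that covariate left 4 of 22 genes of alveolar macrophages higher, 7 of 27 of monocytes and interstitial macrophages, 6 of 16 of club cells, 7 of 25 of type 2 cells, 6 of 26 of drug metabolism and 9 of 18 glucocorticoid targets, where 3.96% of all genes were, and it left 7 of 17 pericyte genes lower, where 4.48% were. With that covariate the tamoxifen minus saline differences of S100a9, Chil3, Scgb1a1, Thsd7b and Igfbp2 were 2.83, 2.77, 0.99, -3.10 and -1.31, with edgeR adjusted p of 0.00482, 0.000158, 5.62e-06, 6.23e-07 and 0.000231.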

How the data were processed

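Whole-lung polyadenylated RNA of 32 mouse samples in 8 groups of 4 was sequenced, per the labels' protocols. The submitters' processing notes name bcl2fastq 2.0. Which aligner, counting rule and genome build were used is not given in the sources used here. Per the file headers, the deposited counts are total exon reads per gene record, with unique and intron reads beside them. The deposited RPKM and TPM values, made by the authors, were read but entered no test. Gene starts lay within 5 kb of RefSeq GRCm38.p6 for 97.4% of the 42999 records found there, and promoters come from that build.

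Counts of the 12 day 6 libraries were tested with edgeR 4.0.16 (R 4.3.3), with quasi-likelihood fits, TMM scaling, the default read filter and Benjamini-Hochberg adjustment, on 14107 of 46165 records. The exon length trend was removed per library as a lowess offset of span 0.3. limma 3.58.1, DESeq2 1.42.0, other scalings, filters, covariates and left-out libraries were alternatives. The fits were tested on simulated data. Library totals of 8006991 to 12443221 exon reads set the counting precision, and the interval covers counting error only.

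Members and gene lists were chosen with earlier results of these data known. Named genes are the 12 largest rises and falls in both fits with ranges that do not overlap, at least 1 CPM and 90% unique reads, up to 4 members per list by p, genes each list is known by, and 3 per direction that depend on length. Anxa1, Bpifa1, Chil1, Csf3r, Ctsd, Ctsh, Cyp2e1, Gclm, Inmt, Itgam, Kcnj8, Lgals3, Ltf, Pla2g7, Retnla and S100a8 fall outside this rule and were chosen after their values were seen, as were the genes given by reads alone. A few genes that the rule names are not reported here.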

Additional observations from a re-analysis of the deposited data

Results flagged for a closer look

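In the groups of 4 libraries, a value was marked where its gap to the nearest other library passed Dixon's critical value at 95%, a limit that chance alone passes in about 1 of 20 groups. Of 338 groups examined over the 127 genes, the gene lists described and the library totals, 18 were marked, a number near that chance rate. Tamoxifen replicate 4 set 7 of them, tamoxifen replicate 1 set 3, and 7 were in saline libraries. Genes recur in the summed lists, so the groups are not independent, and a mark describes a single value only.

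Tamoxifen replicate 4 was the low library for genes of lipid-laden macrophages. Lgals3 stood at 47.0 CPM there, while the other tamoxifen libraries had 96.0 to 103 CPM, and Trem2 stood at 2.75 CPM, while the others had 6.87 to 7.30 CPM. Lamp1 was at 557 CPM beside 621 to 633 CPM, and the summed level of the lysosomal list was 4014 CPM beside 5366 to 5542 CPM. Pi16, the fibroblast marker, was at 5.91 CPM in the same library beside 11.4 to 12.5 CPM. Going the other way, Lpl was at 119 CPM in tamoxifen replicate 4 beside 90.5 to 95.3 CPM, and the summed growth factor list (Wnt, FGF, PDGF and VEGF) was at 4226 CPM beside 3744 to 3778 CPM. The labels give no treatment difference between this library and the other 3, and why it stands apart was not tested.

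In tamoxifen replicate 1, Chil3 was high at 57.7 CPM beside 33.5 to 35.5 CPM, Inmt at 57.8 CPM beside 20.6 to 25.2 CPM, and the summed list of fatty acid oxidation and PPAR targets at 2788 CPM beside 2421 to 2473 CPM. Tamoxifen replicate 2 had the highest Cd79a, at 22.2 CPM beside 17.2 to 17.9 CPM.

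Among the saline libraries, replicate 1 had 3.14 CPM of Cyp1a1 beside 0.502 to 0.757 CPM, and 77.1 CPM of Gclc beside 82.8 to 83.7 CPM. Saline replicate 3 had 19.2 CPM of Junb beside 23.2 to 24.0 CPM and 0.502 CPM of Fer1l6 beside 0.126 to 0.181 CPM. Saline replicate 4 had the highest S100a9, at 33.0 CPM beside 25.5 to 26.5 CPM, and was the deepest saline library with 11292990 exon reads. Saline replicate 2 had the highest summed mesothelial list, at 436 CPM beside 401 to 406 CPM.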

How the results depend on the processing

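The count of 3343 genes for tamoxifen against saline kept within 1.5 times its size under RLE scaling (3352), DESeq2 (3347), limma-voom (3401), no filter on low counts (3105), unique reads (3312), all reads in genes (3990), the 8 libraries alone (2868), all 32 libraries (3794) and Xist as a covariate (3345). It was 1190 with the intronic share as a covariate (558 higher, 632 lower), 1126 with that covariate and the exon length trend removed (561 and 565), and 72 when a 1.5-fold difference was required (49 and 23). Leaving out 1 library gave 1991 to 3924 genes, 973 to 1910 higher and 1018 to 2014 lower, the fewest without saline replicate 4. With the length trend removed the range was 1823 to 3024, for intron reads 2086 to 3715, for Miglyol against saline 308 to 1729, and for tamoxifen against Miglyol 429 to 1188. Miglyol against saline gave 357 genes with the length trend removed. The causes of these changes were not tested. Removing the trend by a spline in place of a moving fit gave 2829 genes, and under the spline the difference of Atp5e reversed to -0.14.

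Replicate numbers did not pair the libraries: same-numbered tamoxifen and saline libraries had correlations of -0.144, -0.123, -0.149 and -0.0296 between their deviations from the group means. With the replicate number as a block 2475 genes passed, and 2167 with the block and the length trend removed (1028 lower). With the block Miglyol against saline gave 461 genes and tamoxifen against Miglyol 565.

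Of the 112 named genes past the threshold 107 stayed past it whichever library was left out, and 79 with the intronic covariate. The 112 include the genes named above that did not meet the read filter in the saline libraries alone, whose passes lend no support. At the median standard error of 0.10 on the log2 scale, differences of a few percent could not be resolved, and genes at 1 CPM rested on about 10 reads a library. The oil groups and saline also differ in the share of intronic reads and in the length slope, so treatment and these library properties cannot be told apart by design.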

Other observations

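Intron reads of ribosomal protein genes stood further apart than their exon reads. Of 41 tested, 35 were higher after tamoxifen than after saline among intron reads, with a median log2 difference of 0.73, where 10.9% of all genes were higher, against 19 and 0.26 among exon reads. Their exons are short, and with the exon length trend removed from the intron reads 8 of the 41 were higher, with a median of 0.35, where 8.02% of the 11987 genes with both kinds of reads tested were.

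Of 12 tested genes of sterol uptake and its regulation 2 were higher and 1 lower after tamoxifen, and of 13 LXR targets 2 were higher and 0 lower. Among markers of tissues that lie next to the lung, 0 of 5 thymus genes and 0 of 5 nerve genes passed the edgeR test, with 0 of either at an unadjusted p under 0.05, 2 of 5 adipose genes were higher, and of 4 liver genes 1 was higher and 1 lower, where 11.3% of all genes were higher and 12.3% lower.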
